A study of Mus musculus with 6 samples.

Results

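Transcripts of miRNA loci were examined in ureteric bud cells of mice with a mutation of Dicer, the enzyme that cuts miRNA hairpins into mature miRNAs. The set held every gene whose symbol begins with Mir and a digit, or with Mirlet7, in the platform annotation, measured by the brightest probe set that names that gene alone. It came to 296 of 19296 genes, of which 293 were hairpin loci and 3 were long transcripts named for their miRNAs (Mir17hg, Mir99ahg and Mir100hg). The cells came from mouse kidneys at E15.5, were sorted on YFP, and were profiled on Affymetrix whole-transcript arrays. The 3 Dicer mutant samples carried Dicerc/- together with the Rosa26YFP reporter and Hoxb7Cre, in which Cre is driven in the ureteric bud lineage. The null allele of Dicer does not depend on Cre. The 3 control samples are labelled wild type, and whether they also carried Hoxb7Cre and Rosa26YFP is not given, although the cells of both groups were collected as YFP+. Both groups had a mixed strain background. The labels call the samples biological replicates without saying if embryos were pooled, and the p-values reflect only how far these particular samples spread.

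A miRNA begins as a stretch of a long primary transcript that folds into a hairpin. Drosha and its partner Dgcr8 cut the hairpin free in the nucleus, Xpo5 carries it to the cytoplasm, and Dicer trims it to the short duplex that Argonaute proteins load. Many hairpins lie side by side on shared primary transcripts, called polycistronic clusters, and others lie within host genes. Mature miRNAs recognise their targets mainly through the seed, and loci with the same seed form a family. The arrays do not report mature miRNAs: a probe set at a miRNA locus reads RNA that holds the hairpin sequence. Whether that RNA was the primary transcript or the hairpin that Dicer would cut cannot be told apart here.

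Many of the loci that rose in the mutant cells belonged to a few sequence families, so their mature sequences are shown first, from RefSeq (GRCm38.p6), with the seed, bases 2 to 8, in capitals. The miR-17 cluster on chromosome 14 is followed by miR-106b and miR-93, which are encoded on chromosome 5 and have the seed of miR-17 and miR-20a.
miR-17-5p: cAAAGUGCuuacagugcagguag
miR-20a-5p: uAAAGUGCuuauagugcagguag
miR-106b-5p: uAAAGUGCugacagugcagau
miR-93-5p: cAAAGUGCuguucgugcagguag
miR-18a-5p: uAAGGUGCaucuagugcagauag
miR-19a-3p: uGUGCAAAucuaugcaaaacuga
miR-19b-3p: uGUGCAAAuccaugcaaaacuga
The miR-181 family has a single seed over 6 measured loci, and the let-7 and miR-99 families are shown for the clusters in which they lie side by side.
miR-181a-5p: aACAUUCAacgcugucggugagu
miR-181b-5p: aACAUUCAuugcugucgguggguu
miR-181c-5p: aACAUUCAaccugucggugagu
miR-181d-5p: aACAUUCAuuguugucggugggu
let-7c-5p: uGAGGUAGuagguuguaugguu
let-7d-5p: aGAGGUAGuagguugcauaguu
let-7f-5p: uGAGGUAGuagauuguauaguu
miR-99a-5p: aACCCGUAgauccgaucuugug
miR-100-5p: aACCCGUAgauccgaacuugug

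The targeted gene was lower in every mutant sample. Dicer1 had log2 levels of 9.80, 9.72 and 9.64 in mutant arrays and 10.31, 10.38 and 10.25 in control arrays. Its log2 fold change came to -0.59, standard error 0.06 (limma, adjusted p = 0.000500; two-sided exact permutation p = 0.1, the smallest that 3 against 3 samples allow). All levels in the text are RMA values on the log2 scale, on which a difference of 1 is a 2-fold change, and array medians ran from 7.47 to 7.54. Of 11 markers of ureteric epithelium, 1 was higher in the mutant cells (Wnt9b, log2 fold change 1.42) and 6 were lower. The summed linear level of the 11 was 39960 to 40917 in mutant arrays and 45126 to 46262 in control arrays. Of 29 measured markers of other kidney cell types, 2 were higher (Six2 and Lrp2) and 4 were lower (Acta2, Slc34a1, Ptprc and Myh11). The lower 4 had log2 fold changes of -0.72, -0.69, -0.45 and -0.33 in that order. Lrp2 had 1.05, and Slc34a1 is a marker of tubules as Lrp2 is. Over all genes, 11.8% were called higher and 13.9% lower at an adjusted p under 0.05 (limma). Among genes above the median of all probe sets, 39.6% were called in either direction. The summed linear level of 6 cap mesenchyme markers was 1975 to 2141 in mutant arrays and 831 to 870 in control arrays, and Six2 was the member of that list past the threshold, with a log2 fold change of 3.29. Of the others, Cited1 had 0.27, Eya1 -0.05, Meox1 -0.15, Crym -0.07 and Gdnf -0.15, and the median over the list was -0.06. The higher sum thus rested mainly on Six2, and the list did not rise as a whole. Summed levels for stroma and muscle were 970 to 984 in mutant arrays and 1008 to 1266 in control arrays. Those for endothelium were 390 to 550 and 460 to 664, and for blood 125 to 134 and 139 to 167. Those for podocytes were 386 to 405 and 343 to 404, and for tubules 656 to 765 and 439 to 613. The part of other cell types in the results for miRNA loci was not tested. In a bulk sample, fewer cells of a type and less RNA per cell cannot be told apart.

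Most miRNA loci did not pass the test, and those that did were mostly higher in the mutant cells. At an adjusted p under 0.05, 22 of 296 members (7.43%) were higher and 4 (1.35%) were lower, while 270 did not pass. Over all genes of the same fit, 11.8% were called higher and 13.9% lower. The probe sets of miRNA loci were dim: 271 of 296 had a mean under 7.51, the median of all probe sets, against 49.8% of all genes. Among genes below that median, 4.34% were called higher and 7.58% lower. Of the 271 dim members, 20 (7.38%) were higher and 4 (1.48%) were lower. Every mutant array lay above every control array for 30 members and below for 18, against 18.3% and 24.1% of all genes. Among the dim members these counts were 28 and 17, against 6.35% and 16.1% of dim genes. The median log2 fold change was -0.03 over the members and -0.05 over all genes. Of the 270 members that did not pass, 256 had a 95% interval of the difference within 1.5-fold in either direction. These intervals bound the signal of a probe set, and in a dim one a change of the RNA may not register. Mir144, for example, had a control mean of 2.76, where the lowest value on any array was 2.26. The count of lower loci turned on control replicate 3: without it, 29 members were higher and 26 were lower.

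The miR-17 cluster rose at every measured hairpin. This growth-promoting polycistron is known to be required for normal kidney development in mice. Its 5 measured hairpins lie within chr14:115043671-115044391 (GRCm38.p6, plus strand), and all 5 passed the test, as did Mir17hg, the long transcript named for the cluster. Mir19b-1 had levels of 5.81, 5.67 and 5.77 in mutant arrays and 4.81, 4.95 and 5.05 in control arrays, a log2 fold change of 0.81 with a standard error of 0.08 (adjusted p = 0.000257). Mir19a had levels of 5.71, 5.12 and 5.12 in mutant arrays and 4.30, 4.64 and 4.78 in control arrays, a log2 fold change of 0.74 (adjusted p = 0.0183). The mutant arrays stood above every control array for both loci of the miR-19 seed in this cluster. Levels of Mir18, which encodes miR-18a, were 6.92, 6.79 and 6.88 in mutant arrays and 6.17, 6.40 and 6.55 in control arrays, a log2 fold change of 0.49 (adjusted p = 0.00768). Those of Mir17 were 5.79, 5.52 and 5.89 in mutant arrays and 5.16, 5.49 and 5.12 in control arrays, a log2 fold change of 0.47 (adjusted p = 0.0265). Mutant replicate 2 and control replicate 2 nearly met for Mir17, whose call was lost in 5 alternative fits. Mir20a reached 5.40, 5.21 and 5.21 in mutant arrays and 4.85, 4.87 and 5.08 in control arrays, a log2 fold change of 0.34 (adjusted p = 0.0218). For Mir17hg the levels were 6.30, 6.32 and 6.26 in mutant arrays and 6.06, 6.03 and 5.85 in control arrays, a log2 fold change of 0.31 (adjusted p = 0.0123).

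RefSeq places the start of Mir17hg at the far end of these hairpins, and the window around that start shows how closely they are packed. A transcript that began there would not hold Mir17, Mir18 or Mir19a, which lie before the window. Where in the window the start lies is not given here, so whether such a transcript would hold Mir20a or Mir19b-1 was not settled. Whether this is the start of the cluster's primary transcript was not tested. The stretch chr14:115044140-115044439 (GRCm38.p6, plus strand) is printed as DNA, with the mature arms of miR-20a and then of miR-19b-1 in capitals.
Window at the start of Mir17hg: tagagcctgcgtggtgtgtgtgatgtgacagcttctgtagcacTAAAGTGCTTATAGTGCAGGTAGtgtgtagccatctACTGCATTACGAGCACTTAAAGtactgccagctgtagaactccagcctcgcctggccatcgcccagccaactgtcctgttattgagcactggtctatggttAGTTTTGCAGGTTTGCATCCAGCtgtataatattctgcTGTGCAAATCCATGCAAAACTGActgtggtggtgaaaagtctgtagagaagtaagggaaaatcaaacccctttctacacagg
The probe letters were not used here, so whether a probe of Mir17hg falls in a hairpin of the cluster was not tested.

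**Figure D1:**
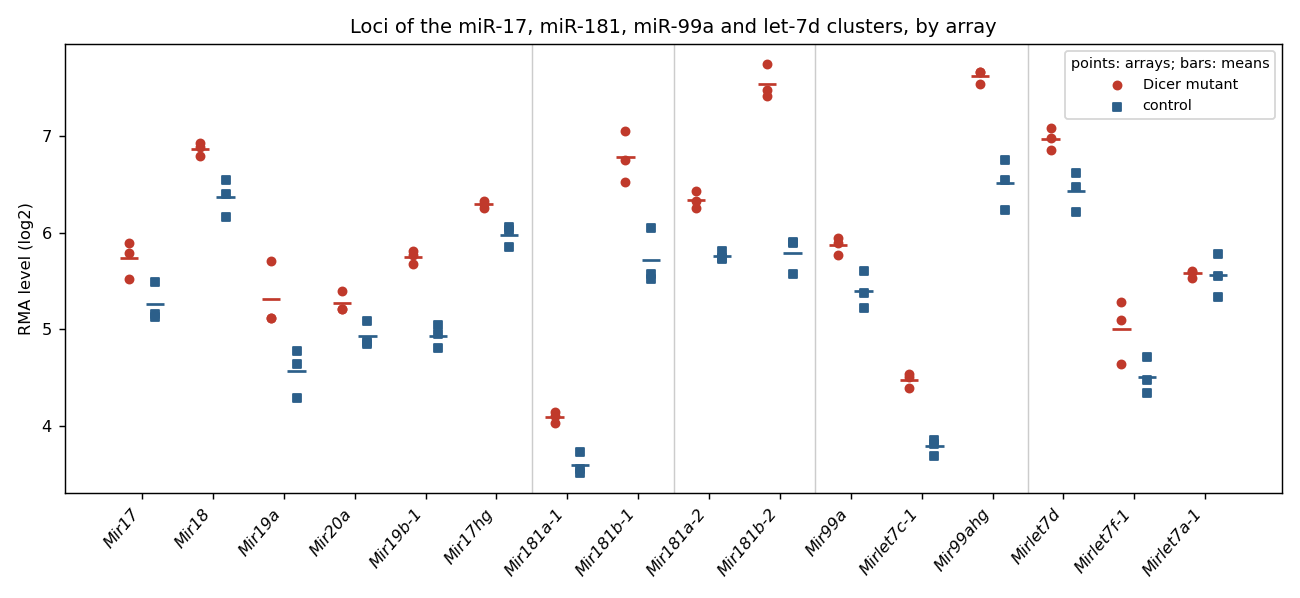
RMA level (log2) of miRNA loci of the miR-17, miR-181, miR-99a and let-7d clusters in each array, with Dicer mutant arrays as red circles left of control arrays as blue squares and bars at the group means (3 arrays each). Every mutant array lies above every control array except at Mirlet7f-1 and Mirlet7a-1.

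The paralogues of the miR-17 cluster did not pass. Mammals carry another copy within Mcm7, a replication helicase gene (Mir106b, Mir93 and Mir25), and a further copy on the X chromosome. Mir106b had levels of 6.45, 6.65 and 6.54 in mutant arrays and 6.38, 6.35 and 6.33 in control arrays, a log2 fold change of 0.20 (95% interval 0.05 to 0.35, adjusted p = 0.0604). Although Mir106b did not pass, its mutant arrays all lay above its control arrays. Mir93 and Mir25 had log2 fold changes of 0.13 and -0.06, and their host Mcm7 had 0.16 (adjusted p = 0.0653). On the X chromosome, Mir106a, Mir20b, Mir19b-2, Mir92-2 and Mir363 had log2 fold changes between -0.04 and 0.10. Their control means were 3.53, 3.88, 3.29, 4.03 and 3.35 in that order, against 4.94 for Mir19b-1. Whether RNA of these X loci was detected at all was not tested. Mir19b-1 on chromosome 14 and Mir19b-2 on the X chromosome encode the same miR-19b-3p. The change of Mir19b-1 exceeded that of Mir19b-2 by 0.72 with a standard error of 0.14 on the log2 scale, and the per-array differences did not overlap between groups (two-sided exact permutation p = 0.1). The change of Mir17 exceeded that of Mir106b by 0.28 with a standard error of 0.20 (two-sided exact permutation p = 0.2), a difference within the spread between samples.

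The largest rise of any member was at a miR-181 locus. The miR-181 family is best known from lymphocyte development. Mir181b-2 had levels of 7.41, 7.74 and 7.47 in mutant arrays and 5.90, 5.57 and 5.90 in control arrays. This was a 3.36-fold rise, a log2 fold change of 1.75 with a standard error of 0.12 (adjusted p = 6.5e-05). Its neighbour Mir181a-2 had levels of 6.43, 6.33 and 6.26 in mutant arrays and 5.81, 5.74 and 5.73 in control arrays, a log2 fold change of 0.58 (adjusted p = 0.000547). Both lie within chr2:38852735-38853918 (GRCm38.p6, plus strand), inside the long noncoding gene Nr6a1os on the same strand and opposite to Nr6a1, a nuclear receptor gene. Nr6a1 itself rose, with a log2 fold change of 0.61 (adjusted p = 0.000256), and Nr6a1os was not analysed here.

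The other miR-181 cluster that rose lies within chr1:137966455-137966718 (GRCm38.p6, plus strand). Mir181b-1 had levels of 7.05, 6.52 and 6.75 in mutant arrays and 5.53, 5.58 and 6.05 in control arrays. Its log2 fold change came to 1.06, standard error 0.17 (adjusted p = 0.00293). Mir181a-1, beside it, had levels of 4.10, 4.15 and 4.03 in mutant arrays and 3.52, 3.55 and 3.73 in control arrays, a log2 fold change of 0.49 (adjusted p = 0.00203). For all 4 loci of these clusters the mutant arrays stood above every control array. Mir181b-1 and Mir181b-2 encode the same miR-181b-5p, and their hairpins, which were 71.4% identical in an alignment, are shown on the plus strand of GRCm38.p6 with the mature arms in capitals.
Mir181b-2, chr2:38853830-38853918: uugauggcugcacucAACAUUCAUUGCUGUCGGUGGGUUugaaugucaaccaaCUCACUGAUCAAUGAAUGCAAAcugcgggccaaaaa
Mir181b-1, chr1:137966639-137966718: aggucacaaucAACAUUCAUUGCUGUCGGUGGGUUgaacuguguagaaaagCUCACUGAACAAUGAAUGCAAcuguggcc
Mir181a-1 and Mir181a-2 likewise share miR-181a-5p. RNA of a locus that binds probes of its twin would appear at both, and this was not tested.

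The miR-181 cluster on chromosome 8 did not pass. Mir181c had levels of 7.66, 7.81 and 8.07 in mutant arrays and 8.08, 7.86 and 7.93 in control arrays, a log2 fold change of -0.11 (adjusted p = 0.502). Levels of Mir181d were 7.51, 7.44 and 7.75 in mutant arrays and 8.08, 7.81 and 7.68 in control arrays, a log2 fold change of -0.29 (adjusted p = 0.114). The groups overlapped at both. The change of Mir181b-2 exceeded that of Mir181d by 2.04 with a standard error of 0.22, and that of Mir181a-2 exceeded that of Mir181c by 0.69 with a standard error of 0.17. In both pairs the per-array differences did not overlap between groups (two-sided exact permutation p = 0.1 each). In all, 35 pairs of paralogous loci, or of a locus and its host, were compared in this way, and the smallest p adjusted over them was 0.152, since no pair can go below 0.1. The per-array differences did not overlap in 23 of the 35. Many pairs set a transcript that passed against one that did not, chosen with earlier results known. Separation in such a pair is therefore no further support.

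The let-7 and miR-99 loci rose in some of their clusters. The let-7 family restrains embryonic growth genes, and its precursors are bound by Lin28 proteins, which block their maturation. On chromosome 16, Mirlet7c-1 had levels of 4.54, 4.39 and 4.51 in mutant arrays and 3.82, 3.70 and 3.86 in control arrays, a log2 fold change of 0.69 with a standard error of 0.07 (adjusted p = 0.000345). Mir99a, within the same stretch, chr16:77598936-77599750 (GRCm38.p6, plus strand), had levels of 5.89, 5.77 and 5.95 in mutant arrays and 5.60, 5.38 and 5.22 in control arrays, a log2 fold change of 0.47 (adjusted p = 0.0102). Mir99ahg, the long transcript named for this cluster, had levels of 7.66, 7.53 and 7.66 in mutant arrays and 6.23, 6.55 and 6.75 in control arrays, a 2.16-fold rise (adjusted p = 0.000522). Every mutant array lay above every control array for these 3 transcripts. The RefSeq span of Mir99ahg ends before Mir99a. Over the mean of its probe sets, the log2 fold change of Mir99ahg was 0.512. Mir125b-2, also on chromosome 16, had a log2 fold change of 0.01 at a mean level of 3.38.

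The paralogous cluster on chromosome 9 passed only at its long transcript. Mir100hg had levels of 8.23, 8.48 and 8.45 in mutant arrays and 7.43, 7.54 and 7.48 in control arrays, a log2 fold change of 0.91 with a standard error of 0.08 (adjusted p = 0.000177). The hairpins inside Mir100hg on the same strand, Mir100, Mirlet7a-2 and Mir125b-1, had log2 fold changes of 0.05, -0.01 and 0.02. Their control means were 3.75, 4.49 and 4.35, and whether their RNA was detected at all was not tested. The change of Mir100hg exceeded that of Mirlet7a-2 by 0.92 with a standard error of 0.10, without overlap of the per-array differences (two-sided exact permutation p = 0.1). The cluster on chromosome 17, Mir99b, Mirlet7e and Mir125a, lies within the span of Spaca6, a sperm protein gene, and had log2 fold changes of -0.02, 0.04 and -0.11. Spaca6 itself rose, with a log2 fold change of 0.43 (adjusted p = 0.0191), a call lost in 2 alternative fits.

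On chromosome 13, Mirlet7d had levels of 7.08, 6.85 and 6.98 in mutant arrays and 6.47, 6.21 and 6.62 in control arrays, a log2 fold change of 0.54 (adjusted p = 0.00825). Mirlet7f-1, of the same cluster, had levels of 5.09, 5.28 and 4.64 in mutant arrays and 4.34, 4.48 and 4.72 in control arrays, a log2 fold change of 0.49 (adjusted p = 0.0629). Its groups overlapped through mutant replicate 3 and control replicate 3. Mirlet7a-1, the other measured hairpin there, had a log2 fold change of 0.02 (95% interval -0.22 to 0.27). Mirlet7f-2 on the X chromosome encodes the same let-7f-5p and had levels of 3.87, 3.86 and 3.85 in mutant arrays and 4.23, 3.91 and 4.14 in control arrays, a log2 fold change of -0.23 (adjusted p = 0.0765). Mirlet7i, Mirlet7g and Mir98 had log2 fold changes of 0.14, 0.17 and 0.03. Of 10 measured loci of the let-7 family, 2 were higher and 8 did not pass. The median log2 fold change over the 10 was 0.09. All 10 were dim, with mean levels of at most 7.02. Among dim genes 4.34% were called higher, and among all genes 11.8%. Whether 2 of 10 loci exceeded these shares was not tested, and so few loci could hardly show it.

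**Figure D2:**
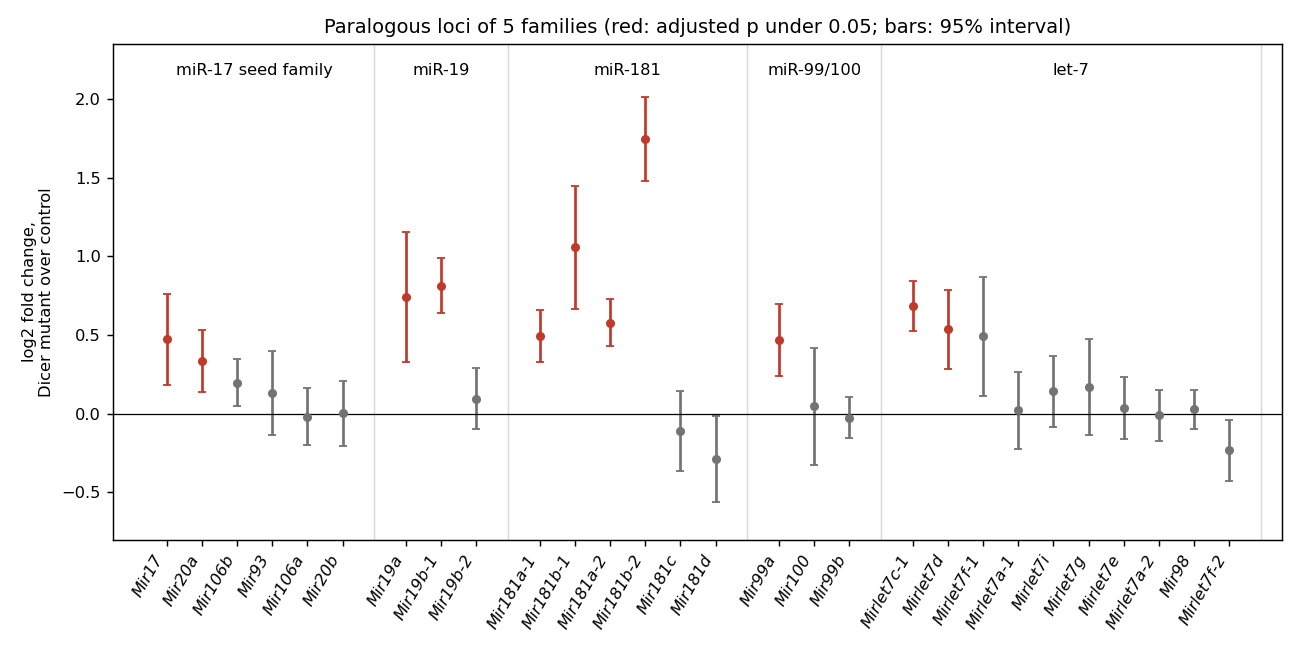
Log2 fold change, Dicer mutant over control, of paralogous loci in 5 miRNA families, with 95% intervals from the limma fit (3 arrays each). Red points passed an adjusted p of 0.05 and grey points did not. Mir181b-2 is highest at 1.75, and Mir181d, of the same seed, is at -0.29.

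Single loci outside these clusters also rose. Mir568 had levels of 6.91, 6.84 and 6.64 in mutant arrays and 5.32, 5.67 and 5.41 in control arrays, a log2 fold change of 1.33 with a standard error of 0.10 (adjusted p = 0.000136). In the RefSeq table it lies within the span of Tigit, an immune receptor gene, on the opposite strand, and Tigit had a log2 fold change of -0.01. Mir505, on the X chromosome, had levels of 8.65, 8.65 and 8.63 in mutant arrays and 7.97, 8.11 and 7.98 in control arrays, a log2 fold change of 0.62 (adjusted p = 0.000264). The groups did not overlap at either locus.

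Smaller rises were found at Mir10a, Mir218-1, Mir717, Mir301 and Mir15b. Mir10a, in the HoxB cluster, had levels of 5.50, 5.06 and 5.42 in mutant arrays and 4.65, 4.81 and 4.99 in control arrays, a log2 fold change of 0.51 (adjusted p = 0.0221). Hoxb3, whose RefSeq span covers it on a strand not given in the tables, had a log2 fold change of -0.02. Mir10b, its counterpart in the HoxD cluster, had 0.43 with a standard error of 0.25 and did not pass (adjusted p = 0.253). Mir218-1, within the guidance ligand gene Slit2, had levels of 6.68, 6.42 and 6.64 in mutant arrays and 5.91, 6.34 and 6.27 in control arrays, a log2 fold change of 0.41 (adjusted p = 0.0400). Mir218-2, within Slit3, encodes the same miR-218-5p and had a log2 fold change of -0.25 (adjusted p = 0.115), while Slit3 rose with 0.31 (adjusted p = 0.0241), a call lost in 5 alternative fits. Mir717, within Gpc3, a glypican gene that limits growth, had levels of 6.47, 6.38 and 6.78 in mutant arrays and 6.16, 6.04 and 6.19 in control arrays, a log2 fold change of 0.41 (adjusted p = 0.0215). The mutant arrays of Mir10a, Mir218-1 and Mir717 all lay above their control arrays. Mir301, within the spindle gene Ska2, had levels of 4.55, 4.80 and 4.62 in mutant arrays and 4.40, 4.15 and 4.34 in control arrays, a log2 fold change of 0.36 (adjusted p = 0.0211). Mir15b, in the span of the condensin gene Smc4 (relative strand not given in the tables), had levels of 4.16, 4.20 and 4.27 in mutant arrays and 3.996, 3.996 and 3.88 in control arrays, a log2 fold change of 0.25 (adjusted p = 0.0181). The groups were also apart at Mir301 and Mir15b. Its neighbour Mir16-2 had 0.11, and the paralogous Mir15a and Mir16-1, in the span of Dleu2, had 0.10 and -0.01.

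The 4 loci that were lower changed little. Mir490, within the muscarinic receptor gene Chrm2, had levels of 4.37, 4.12 and 4.34 in mutant arrays and 4.61, 4.58 and 4.63 in control arrays, a log2 fold change of -0.33 (adjusted p = 0.0145). Levels of Mir697 were 6.96, 6.93 and 6.99 in mutant arrays and 7.22, 7.23 and 7.21 in control arrays, a log2 fold change of -0.26 (adjusted p = 0.00742). The groups did not overlap at these loci. Mir185, within Tango2, had levels of 7.31, 7.28 and 7.39 in mutant arrays and 7.82, 7.61 and 7.48 in control arrays, a log2 fold change of -0.31 (adjusted p = 0.0367). For Mir296, near the imprinted Gnas locus, the levels were 7.14, 6.97 and 7.24 in mutant arrays and 7.45, 7.55 and 7.27 in control arrays, a log2 fold change of -0.31 (adjusted p = 0.0492). Neither Mir185 nor Mir296 passed after quantile normalization (adjusted p = 0.0565 and 0.0757) or median centring (adjusted p = 0.0579 and 0.0939).

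Neighbouring loci were grouped where they lay within 10 kb of each other in the RefSeq table (GRCm38.p6), which gave 47 groups with 147 loci, while 146 loci stood alone. Of these groups, 7 held a locus that passed and 4 held 2 or more that rose, namely the miR-17 cluster, both risen miR-181 clusters and the pair of Mir99a and Mirlet7c-1. The groups held 13 of the 19 hairpin loci that rose, and 5 of these 13 were of the miR-17 cluster. Of loci in groups 8.84% were higher, and of single loci 4.11%. Over all genes 11.8% were called higher, and 4.34% of genes below the median of all probe sets. Neighbours can share a transcript and are not independent, and whether risen loci were gathered in groups was not tested. The 40 groups with no call held 129 loci, whose log2 fold changes ran from -0.35 to 0.38.

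**Figure D3:**
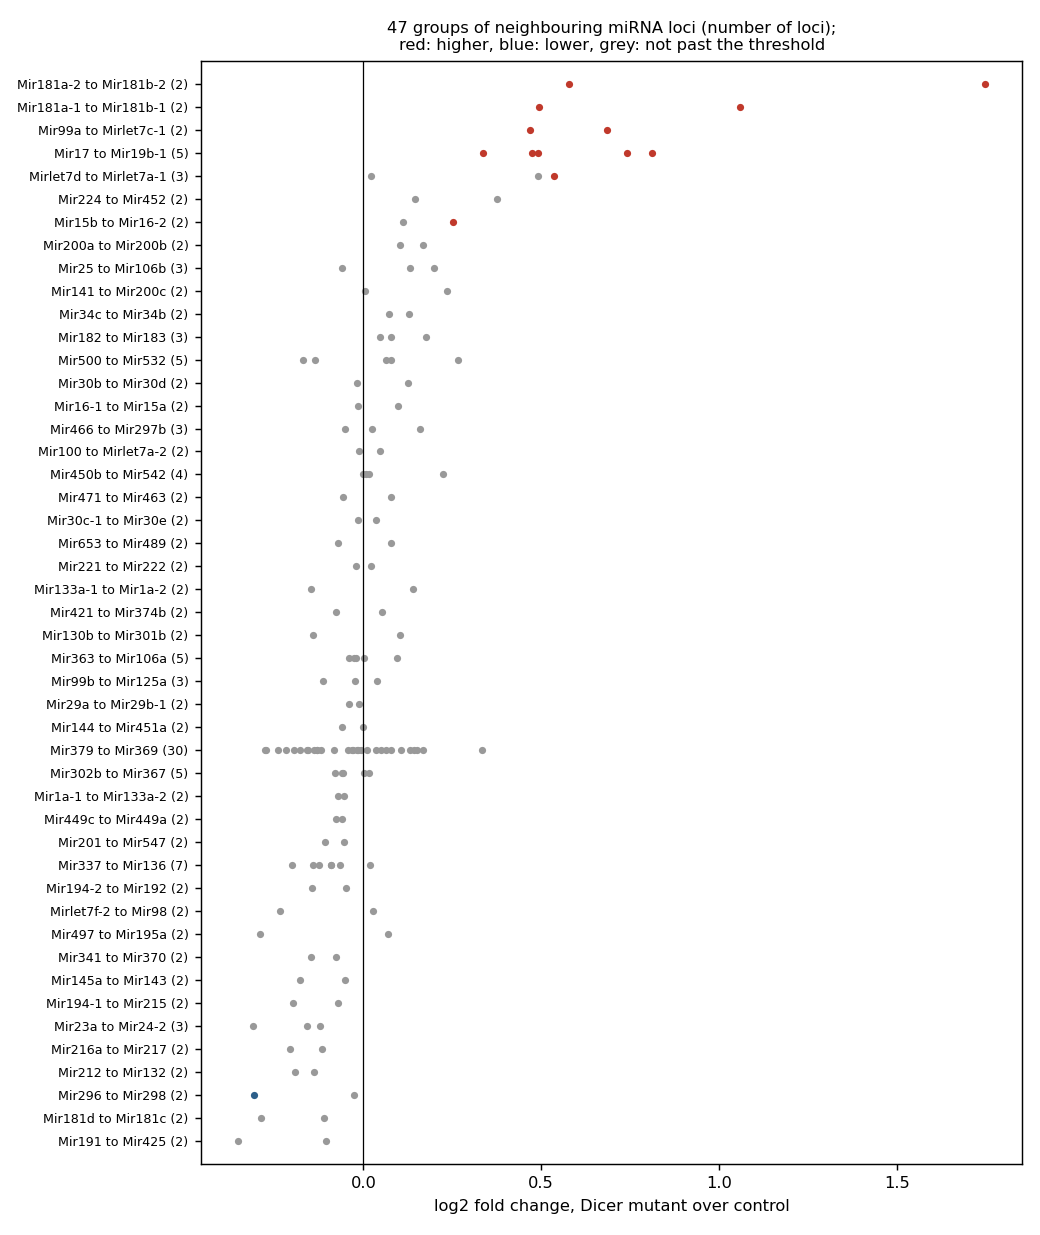
Log2 fold change, Dicer mutant over control, of every locus in 47 groups of neighbouring miRNA loci. Red loci were higher and blue loci lower at an adjusted p under 0.05, and grey loci did not pass. The miR-17 cluster, both risen miR-181 clusters and the pair of Mir99a and Mirlet7c-1 consist of red loci throughout.

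The imprinted Dlk1-Dio3 domain on chromosome 12 carries a very large set of miRNA hairpins transcribed from the maternal chromosome. None of its 39 grouped loci passed in the limma fit, and their log2 fold changes ran from -0.28 to 0.33 with a median of -0.08. Among the 30 loci from Mir379 to Mir369, the brightest were Mir667 and Mir666, with log2 fold changes of -0.22 and -0.13. In the group from Mir337 to Mir136, Mir431 and Mir540 had -0.14 and -0.09. Mir341 and Mir370 had -0.08 and -0.15, whereas Rian, the long noncoding transcript whose span holds them on the same strand, rose with a log2 fold change of 0.47 (adjusted p = 0.0241). The call of Rian was lost in 5 alternative fits, with an adjusted p of up to 0.0827.

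The miR-200, miR-30, miR-192, miR-34 and miR-182 family loci named next did not pass. The miR-200 family, which helps to keep cells epithelial by repressing Zeb factors, had log2 fold changes of 0.10 for Mir200a and 0.17 for Mir200b on chromosome 4. On chromosome 6, Mir200c and Mir141 had 0.00 and 0.24. Mir200b had levels of 6.40, 6.44 and 5.98 in mutant arrays and 5.95, 6.11 and 6.26 in control arrays, so its groups overlapped. In the miR-30 family, whose knockdown in frogs disturbs pronephros development, Mir30a and Mir30c-2 had log2 fold changes of 0.24 and 0.18. Mir30d and Mir30b had 0.13 and -0.02, and Mir30e and Mir30c-1 had -0.02 and 0.03. Mir192 and Mir194-2 had -0.05 and -0.15, and their paralogues Mir215 and Mir194-1 had -0.07 and -0.20. Of the p53-responsive miR-34 family, Mir34a, Mir34b and Mir34c had 0.01, 0.07 and 0.13. Mir182, Mir96 and Mir183, a cluster known from sensory epithelia, had 0.18, 0.08 and 0.05.

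Loci known for restricted expression in other cells did not pass. Mir126a, of endothelium, had levels of 3.01, 3.20 and 3.28 in mutant arrays and 3.23, 3.07 and 3.20 in control arrays. Mir142, of blood cells, had a log2 fold change of 0.13, and the erythroid pair Mir144 and Mir451a had -0.06 and 0.00. Mir143 and Mir145a, of smooth muscle, had -0.18 and -0.05, while Mir199a-1 and Mir199b, of mesenchyme, had -0.17 and -0.03. The muscle loci Mir1a-1, Mir133a-2, Mir1a-2, Mir133a-1 and Mir206 had -0.07, -0.06, 0.14, -0.15 and -0.14. Mir122, of liver, had -0.06. The 95% interval was -0.52 to 0.16 for Mir143 and -0.20 to 0.19 for Mir126a.

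The remaining groups are given by their brightest loci. Mir191 and Mir425, within Dalrd3, had log2 fold changes of -0.35 and -0.10 (adjusted p = 0.0600 for Mir191). Mir24-2 and Mir27a had -0.31 and -0.12. Mir497 and Mir195a had -0.29 and 0.07. Mir224 and Mir452, within the GABA receptor gene Gabre, had 0.38 and 0.14. Mir216a and Mir217 had -0.21 and -0.12, and Mir132 and Mir212, known from neurons, had -0.19 and -0.14. Mir130b and Mir301b had -0.14 and 0.10 within 2610318N02Rik, which fell with a log2 fold change of -0.48 (adjusted p = 0.000687). On the X chromosome, Mir542 and Mir450-2 had 0.22 and 0.00, and Mir222 and Mir221 had 0.02 and -0.02. Mir374b and Mir421 had 0.05 and -0.08, Mir463 and Mir471 had 0.08 and -0.06, and Mir201 and Mir547 had -0.06 and -0.11. Mir302c and Mir302d, of a cluster known from stem cells, had 0.00 and -0.08, and Mir449a and Mir449c had -0.06 and -0.08. Mir29a and Mir29b-1 had -0.04 and -0.01, Mir489 and Mir653 had 0.08 and -0.07, and Mir298, beside Mir296, had -0.03. Mir297b and Mir669c had 0.02 and -0.05. Of the brightest members of all, Mir692-1 had a log2 fold change of 0.02, Mir598 had -0.31, Mir346 had -0.17, Mir139 had -0.10 and Mir210 had -0.06, and none passed.

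Host genes and the miRNA loci inside them were rarely called together, and few of those loci were called at all. A host was a gene whose RefSeq span holds the locus on the same strand, and 69 such genes outside the set were measured. Of these, 17 were higher, 10 were lower and 42 did not pass, and the median of their log2 fold changes was 0.03. The share called was 39.1%, against 25.8% of all genes. Of the hosts 24.6% were higher and 14.5% lower, against 11.8% and 13.9% of all genes. Above the median of all probe sets, where 50 of the 69 lay, 39.6% of genes were called. Below it, where 19 lay, 11.9% of genes were called. Whether the share of hosts exceeded that of genes of like level was not tested. The hosts and their loci made 84 pairs. In 23 pairs the host was higher and the locus did not pass, in 12 the host was lower and the locus did not pass, and in 3 the locus was higher and the host did not pass. In 1 pair, Mir185 and Tango2, both were lower, and no pair had both called higher by limma. A locus was called in only those 3 pairs and that 1 pair, so the counts cannot show whether hosts and loci moved together. Mir17hg, Mir99ahg and Mir100hg belong to the set and were not counted as hosts. The call of Tango2 (log2 fold change -0.22, adjusted p = 0.0463) was lost in 7 alternative fits, with an adjusted p of up to 0.156, and that of Mir185 in 8.

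Clcn5, a chloride transporter gene of endosomes, had levels of 11.27, 11.36 and 11.25 in mutant arrays and 9.69, 9.76 and 9.51 in control arrays, a log2 fold change of 1.64 (adjusted p = 2.1e-05). The loci within it, Mir188, Mir362, Mir500, Mir501 and Mir532, had log2 fold changes of -0.17 to 0.26, and none passed. Trpm3, a cation channel gene, had levels of 8.26, 8.46 and 8.18 in mutant arrays and 6.75, 6.48 and 6.54 in control arrays, a log2 fold change of 1.71 (adjusted p = 3.5e-05). Mir204 inside it had levels of 4.01, 3.80 and 4.11 in mutant arrays and 4.32, 4.18 and 4.16 in control arrays, a log2 fold change of -0.25 (adjusted p = 0.0783). The change of Trpm3 exceeded that of Mir204 by 1.96 with a standard error of 0.18, without overlap of the per-array differences (two-sided exact permutation p = 0.1). In the opposite sense, Gpc3, Slit2 and Ska2 had log2 fold changes of 0.06, -0.03 and 0.04, and the loci within them, Mir717, Mir218-1 and Mir301, rose. The change of Mir717 exceeded that of Gpc3 by 0.35 with a standard error of 0.13 (two-sided exact permutation p = 0.1). Wdr82, the host of Mirlet7g, rose with a log2 fold change of 0.31, and Pde2a, the host of Mir139, fell with -0.63 (adjusted p = 0.00412 and 0.000658).

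Base composition went with the level of the probe sets. Over 256 loci with a hairpin in the RefSeq table, the share of G and C ran from 28.4% to 69.2%, and Spearman's correlation with the mean level was 0.79 (Pearson's r 0.79). This correlation is across loci, which share the same arrays and are not independent replicates. Levels of different loci were therefore not ranked as amounts of RNA. Of the 18 risen loci with a hairpin, 14 lay above the least-squares line of control level on composition, against 48.0% of all loci. So did 3 of the 4 lower loci, so this was not particular to the risen ones. Mir568 lay 2.93 log2 units above that line and Mirlet7c-1 stood at -1.06. The log2 fold change also went with composition, with a Spearman correlation of -0.35 over the same loci. The median share of G and C was 44.8% for the risen loci and 56.3% for the 4 that were lower, against 47.4% for all. By array, the Spearman correlation of a locus's deviation from its mean with G and C was -0.31, -0.38 and 0.13 in the mutant arrays and 0.42, 0.29 and -0.17 in the control arrays. Replicate 3 of each group had the opposite sign to the other arrays of its group, and the part of composition in the results was not tested.

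**Figure D4:**
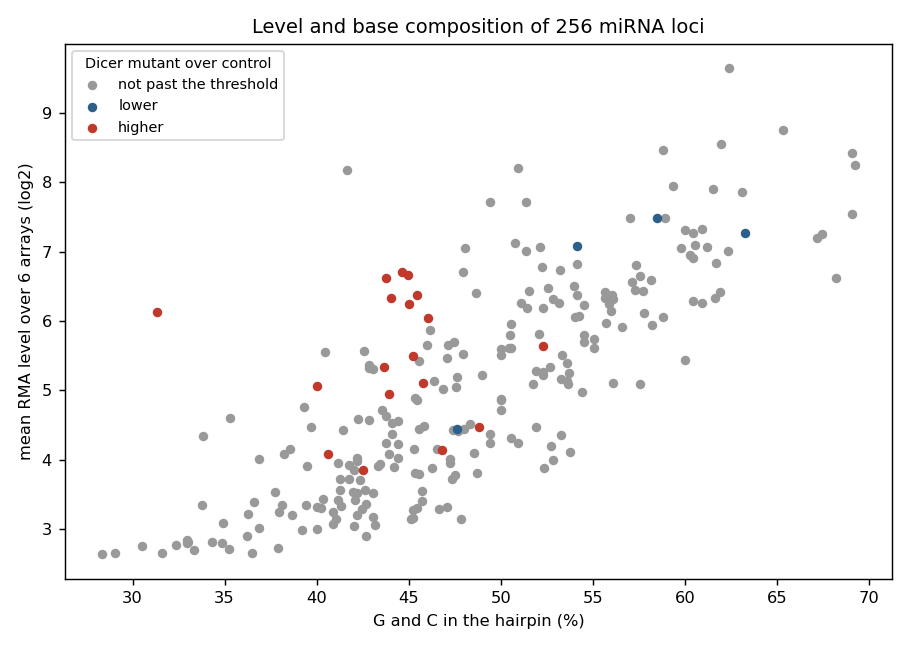
Mean RMA level (log2) over 6 arrays on the vertical axis against the share of G and C in the hairpin (%) on the horizontal axis, for 256 miRNA loci. Red loci were higher and blue loci lower in Dicer mutant cells at an adjusted p under 0.05. Levels climb with G and C, and the red point far left of the other red points is Mir568.

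Among genes that make, load or degrade miRNAs, 23 of 24 listed were measured, of which 6 were higher, 1 was lower (Dicer1) and 16 did not pass. Over all genes, 25.8% were called in either direction, and 39.6% of those above the median of all probe sets, so the count for this list was near the background. Their median log2 fold change was 0.09. Of the genes that act before Dicer, Drosha had a log2 fold change of 0.02, Dgcr8 had 0.16 (adjusted p = 0.0632) and Xpo5 had 0.09, and none of these passed. Ddx5, a helicase of the Drosha complex, rose with 0.23 (adjusted p = 0.0200), a call lost in 5 alternative fits with an adjusted p of up to 0.0822. Lin28b, which blocks let-7 maturation, had levels of 8.34, 8.52 and 8.47 in mutant arrays and 6.69, 6.78 and 6.996 in control arrays, a log2 fold change of 1.62 (adjusted p = 3.4e-05). Tut4, which adds uridines to let-7 precursors bound by Lin28 proteins, rose with 0.40 (adjusted p = 0.00532). Ago3 and Ago2, which bind mature miRNAs, rose with 0.85 and 0.68 (adjusted p = 6.6e-05 and 0.000146), and the exonuclease gene Xrn2 rose with 0.25 (adjusted p = 0.0147), a call lost in 2 alternative fits.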

How the data were processed

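RNA of YFP+ ureteric bud cells was measured on 6 arrays, 3 per group. The deposited values are log2 RMA intensities made by the authors with RMA and affy, per the submitters' processing notes; for tool versions, genome build and filters, nothing is given in the sources used here. Among 23309 probe sets, 20728 carried 1 gene symbol, 1174 several and 1407 none in the platform annotation, and 20685 of the single symbols matched RefSeq (GRCm38.p6). The brightest probe set stood for each of 19296 genes. limma 3.58.1 in R 4.3.3 fitted Dicer mutant against control over all genes, with Benjamini-Hochberg adjustment over all of them, and was tested on simulated data. Intervals are 95%, and their width is limited by how few arrays there are. Differences between 2 loci were tested by exact permutation of samples. Figures used matplotlib 3.10.9.

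The members, gene lists and paralogue pairs were chosen with earlier results of these data known. Named were members past the threshold, the brightest 2 of each neighbour group, the 6 brightest members, loci of kidney families and of restricted cell types, measured hosts, and biogenesis genes past the threshold with Drosha, Dgcr8 and Xpo5. A further 10 genes outside this rule were chosen after their values were seen: Mir218-2, Mir125b-1, Mir125b-2, Mir125a, Nr6a1, Slit3, Hoxb3, Smc4, Six2 and Lrp2. Tigit, Wnt9b, the cap mesenchyme markers, Acta2, Slc34a1, Ptprc and Myh11 were likewise chosen after their values were seen. Alternatives were a replicate block, leaving out each replicate, quantile normalization, median centring, a filter on dim genes, averaging the probe sets of each gene, trend and robust eBayes, array weights, thresholds of 0.01 and 0.1, and probe sets that name several miRNA genes.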

Additional observations from a re-analysis of the deposited data

How the results depend on the processing

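The count of miRNA loci that were lower was the least stable: 4 in the reported fit, 2 after quantile normalization, 2 after median centring, 10 with trend and robust eBayes, and 10 with array weights. A filter on dim genes kept those with either group mean over the median of all probe sets, so a member such as Mir181b-2 or Mir99ahg entered through the group where it was high and the count is no support for the members; under it 9 passed (4 higher, 5 lower). At a threshold of 0.01, 13 passed (12 higher, 1 lower), and of the hosts 17 (11 higher, 6 lower). At 0.1, 48 members passed (30 higher, 18 lower). Leaving out 1 replicate at a time gave 19 to 55 members, 17 to 29 higher and 2 to 26 lower, the highest counts without control replicate 3; for hosts it gave 19 to 26, 11 to 17 higher and 7 to 9 lower, with 11 higher without mutant replicate 1. With the replicate number as a block, 20 members passed (18 higher, 2 lower), and 18 of the 26 members of the reported fit were among them; the log2 fold change of Dicer1 kept its value and side of the threshold. The deviations of same-numbered samples from their group means correlated at -0.19, -0.10 and -0.22, and those of other pairings at up to 0.18. With so few arrays, these values cannot show whether samples of the 2 groups shared a litter, day or batch. The cause of these shifts was not tested. Calls were lost in 8 alternatives for Mir185, 7 each for Mir296, Tango2 and Dalrd3, 5 each for Mir17, Rian, Slit3, Ddx5 and Hoxd3, 4 each for Mir20a, Mir10a, Mir218-1 and Mir301, 3 for Mir15b, 2 each for Mir19a, Spaca6 and Xrn2, and 1 for Mir717. Dim signal limits the members, 271 of which lie below the median of all probe sets. Wnt9b, Acta2, Slc34a1, Ptprc and Myh11 were not followed in the alternatives. None of the other 48 named genes past the threshold changed sign in an alternative that gave a value for it. Of the 129 named genes that did not pass, 47 changed sign in at least 1 alternative, so the signs of these carry no direction; the largest of these log2 fold changes was 0.11 in size.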
